A study of Mus musculus with 18 samples.

Results

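Cyclin B-Cdk1, also called M-phase promoting factor, and the enzymes that switch it on and off were followed here as 10 genes out of the 47069 listed for each oocyte. The genes were chosen by name: the kinase Cdk1, the cyclins Ccnb1, Ccnb2, Ccnb3 and Ccna2, the inhibitory kinases Wee2 and Pkmyt1, and the activating phosphatases Cdc25a, Cdc25b and Cdc25c. All 10 passed the filter on low counts, which kept 12037 genes. The data were SMART-seq2 mRNA profiles of 18 single oocytes from wild type C57BL/6 mice. At 6 weeks and at 12 months of age there were 3 germinal vesicle (GV) oocytes without co-culture, 3 oocytes matured in vitro to metaphase II without co-culture (IVM-MII) and 3 that reached metaphase II in vitro after overnight co-culture beside MSC, which the labels do not spell out (MSC-IVM-MII). No animal, litter or dish is named for any oocyte; a group was therefore taken as a single sample, without tests. The purpose, as far as the series title states it, was to see what the co-culture does to oocytes.

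In the fully grown oocyte, Cdk1 bound to a B-type cyclin drives breakdown of the germinal vesicle and assembly of the meiotic spindles. Before that, Wee2 and Pkmyt1 hold the kinase inactive by phosphorylating it, and Cdc25 phosphatases remove those phosphates when meiosis resumes. Transcription is silent during maturation, and the amounts of cyclin depend largely on which stored messages are translated and which are degraded. Many stored messages carry a cytoplasmic polyadenylation element (CPE) close to the polyadenylation hexamer, through which the poly(A) tail is lengthened during maturation.

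The ends of the messages are shown first, because the poly(A) tail that SMART-seq2 primes from is added there. One annotated end is shown for each of 6 members, and other annotated ends differ. Each line gives the mRNA strand 5′ to 3′ from the GENCODE M21 transcript on GRCm38. Capitals mark the CPE (TTTTAT or TTTTAAT, searched on the mRNA strand within 100 bases before the hexamer) or, where there was none, the hexamer AATAAA. In Wee2 both stand in capitals. The Wee2 window runs from a CPE to the hexamer, with 20 bases between their first bases. In Ccnb1-202, Ccna2-205 and Ccnb3-201 the first base of the CPE lay 29, 45 and 48 bases before that of the hexamer, and the windows begin at the CPE.
Ccna2-205 (chr3:36566015-36566044, minus strand): TTTTAATtggttaacattggtgctgccaac
Ccnb1-202 (chr13:100778764-100778793, minus strand): TTTTAATttatacatctgatatcaagttga
Ccnb3-201 (chrX:6979690-6979719, minus strand): TTTTATgaaagaagagaaattgttttgtta
Wee2-201 (chr6:40466768-40466793, plus strand): TTTTAATccagatcattgtaAATAAA
Ccnb2-201 (chr9:70407705-70407734, minus strand): taactctgctctgtattgaaggaaAATAAA
Cdk1-201 (chr10:69335168-69335197, minus strand): aatttaatgtgcctaatggcacggAATAAA
All of these windows lie in the 3′ UTR of the last exon. A CPE stood in at least 1 annotated transcript of 4 of the 10 members, namely Ccna2, Ccnb1, Ccnb3 and Wee2, and of 2211 of the 9316 tested genes with a terminal hexamer (23.7%). The annotation holds other ends for 2 of these: Ccna2-201 and Ccnb1-201 have a hexamer but no CPE in the window searched. Their 3′ UTRs are longer than those of Ccna2-205 and Ccnb1-202. With only the longest 3′ UTR of each gene counted, the share of all genes with a CPE was 20.2%. By that rule Ccna2 and Ccnb1 would be classed without a CPE, so the members' share depends on the rule. The shorter Cdk1-202, whose length is nearer to the deposited weighted lengths of Cdk1 than that of Cdk1-201, has no AATAAA or ATTAAA in its last 50 bases. A match describes letters in a window and does not show that a site is used.

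Values below are CPM, the counts of a gene relative to its library's total, scaled by edgeR's TMM factors, unless TPM, which are also corrected for transcript length, are named. A difference is the mean log2(CPM + 1) of the first group minus that of the second, and it is called past the fold when it is at least 1 in either direction, which is a 2-fold change for a well expressed gene. CPM are shares of a library, so a higher value need not mean more molecules per oocyte. SMART-seq2 primes from the poly(A) tail, and more transcript and a longer tail cannot be told apart in these values. The nucleus was spun down and the supernatant used, and metaphase II oocytes no longer have a germinal vesicle. What this does to differences between the stages was not tested. SDs are over the 3 oocytes of a group (n = 3), and animals may differ by more or less. Intervals in brackets are exact Poisson 95% intervals of summed counts and cover counting error only.

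Total counts ran from 1914072 to 9193559 per oocyte, and 3 counts, the floor used here, were worth 0.362 to 1.34 CPM. All 15 oocyte markers had a count in every GV oocyte and 13 to 15 of them in each metaphase II oocyte. Mitochondrially encoded genes took 0.917% to 3.70% of counts in GV and 3.03% to 14.9% in metaphase II oocytes. Some libraries stood apart. Sample titles carry 5 prefixes that the labels leave unexplained, and the first oocyte of each 6-week metaphase II group, both with the prefix Y01, had mitochondrial shares of 3.22% and 3.03% and summed oocyte markers of 46346 and 40916 CPM, against 6884 to 23692 CPM in the other 10 metaphase II oocytes. GV 12-month oocyte 3 held 2394 CPM of cumulus and granulosa cell markers (18 of 22 with a count), against 73.8 to 249 CPM in the other GV and 0 to 80.3 CPM in the metaphase II oocytes. Ptx3 of that list was at 0 in all 18. Markers of mesenchymal stromal cells summed to 5.39 to 56.0 CPM, with Thy1, Nt5e and Eng at 0 throughout, and those of blood cells to 0 to 20.8 CPM, with Ptprc, Adgre1 and S100a8 at 0 throughout. The part of these cells and libraries in the results was not tested beyond leaving out the libraries named.

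Cdk1 (ENSMUSG00000019942, chromosome 10, 69335146 to 69352938) was abundant in every GV oocyte and low in every metaphase II oocyte, with 3 counts or fewer in 4 of the 12 and 10 to 217 counts in the other 8. The 6-week GV oocytes held 419, 249 and 512 CPM, and the 12-month GV oocytes 737, 468 and 152 CPM. At 6 weeks the IVM-MII oocytes held 0.225, 0 and 4.56 CPM and the MSC-IVM-MII oocytes 7.38, 3.33 and 0 CPM. At 12 months the IVM-MII oocytes held 11.1, 0.40 and 45.9 CPM and the MSC-IVM-MII oocytes 6.23, 8.72 and 17.0 CPM. The lowest GV oocyte thus stood above the highest metaphase II oocyte in each of the comparisons. Summed over 3 oocytes, the 6-week counts were 4033 [3910–4159] in GV, 17 [9.9–27.2] in IVM-MII and 45 [32.8–60.2] in co-cultured oocytes. The 12-month counts were 8054 [7879–8232], 311 [277.4–347.6] and 163 [138.9–190].

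As ratios of mean CPM, IVM-MII oocytes held 247-fold less Cdk1 than GV oocytes at 6 weeks and 23.6-fold less at 12 months, and co-cultured oocytes 110-fold and 42.5-fold less. Most IVM-MII counts came from oocyte 3, with 16 of 17 at 6 weeks and 217 of 311 at 12 months, so these folds rest largely on it. On the log2(CPM + 1) scale the differences were -7.64, -5.34, -6.83 and -5.12. Counted from the most negative difference of 12037 genes, Cdk1 stood at place 4, 127, 8 and 259. Without oocyte 3 of IVM-MII they were -8.41 at 6 weeks and -6.51 at 12 months, without 12-month IVM-MII oocyte 2 the latter was -3.98, and without 6-week MSC-IVM-MII oocyte 3 that group's was -5.97. Without the Y01 oocytes the 6-week differences were -7.32 and -7.50, and without GV 12-month oocyte 3 the 12-month differences were -5.99 and -5.77. The 2 ages shared no title prefix, and the differences of the 2 ages were not tested against each other.

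**Figure D1:**
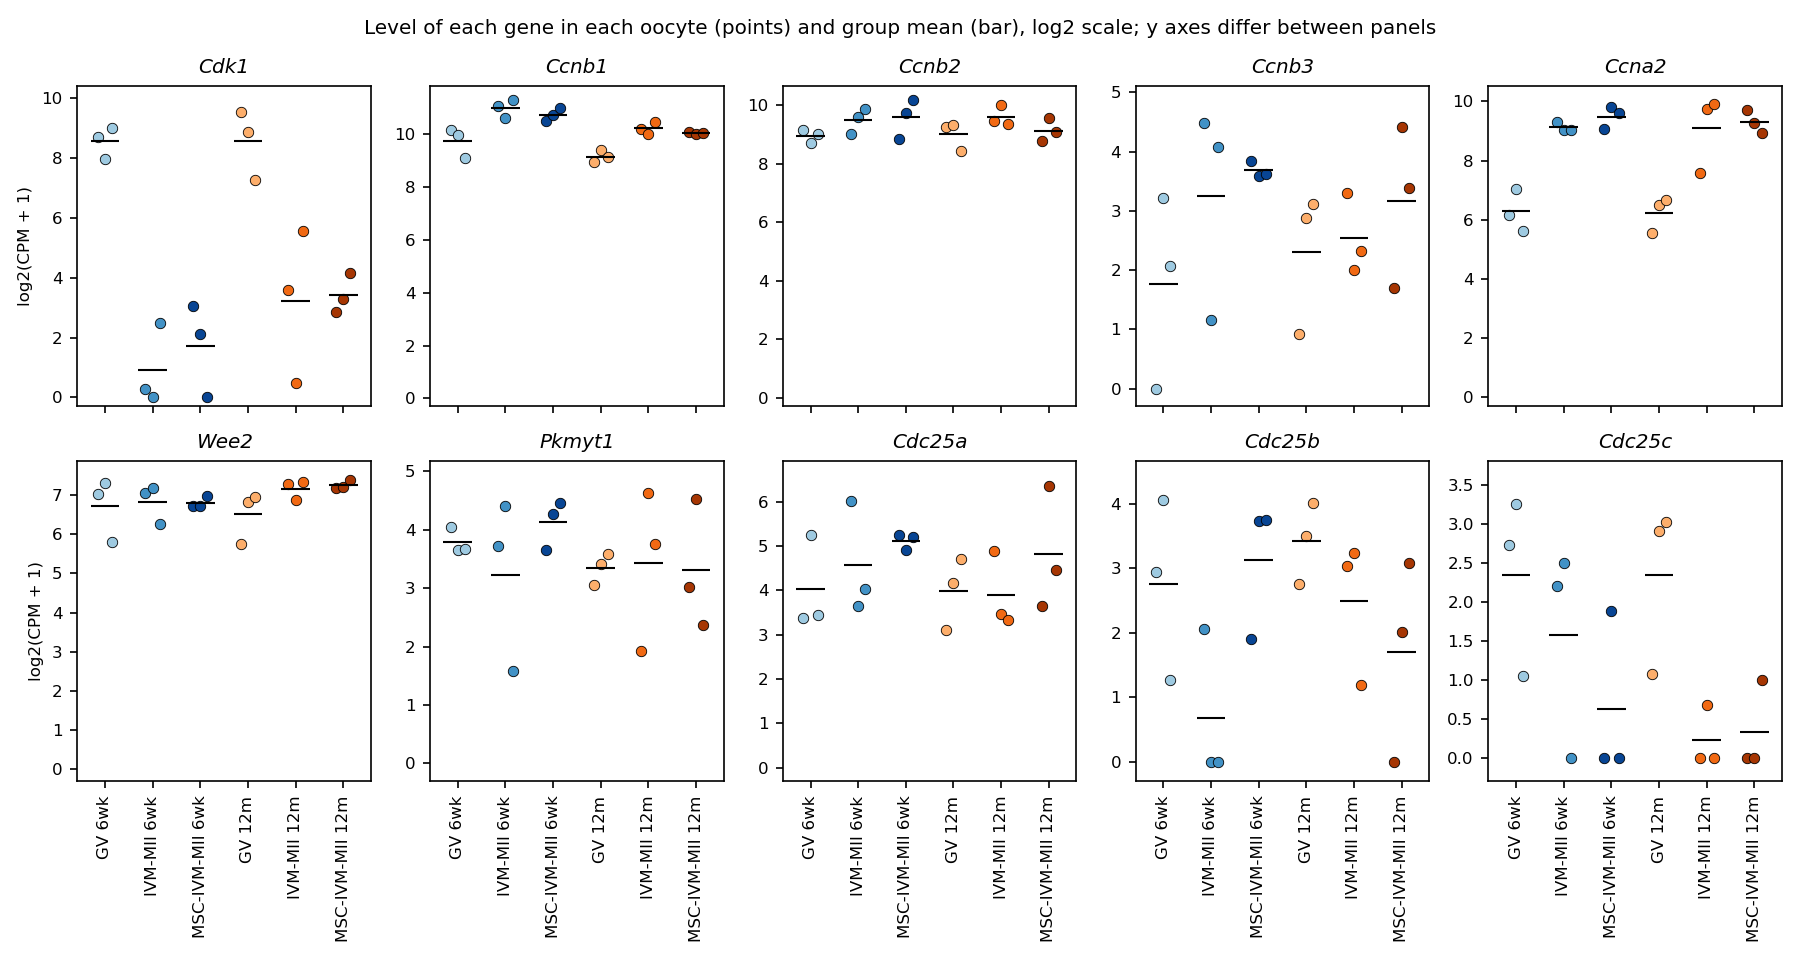
Level of each of the 10 genes as log2(CPM + 1) on the y axis (scales differ between panels) in the 6 groups on the x axis, with 1 point per oocyte and a bar at the mean of the 3 oocytes. Cdk1 is low in all 12 metaphase II oocytes, while Ccnb1 and Ccna2 are higher there than in the GV oocytes of the same age, and the Cdc25b and Cdc25c points spread widely near 0.

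Ccnb1 and Ccna2 went the other way. Ccnb1 (ENSMUSG00000041431, chromosome 13, 100778650 to 100786570), the main mitotic B-type cyclin, was at 1136, 1003 and 555 CPM in the 6-week GV oocytes and at 488, 683 and 558 CPM in those of 12 months. IVM-MII oocytes held 2126, 1572 and 2542 CPM at 6 weeks and 1177, 1028 and 1411 CPM at 12 months. MSC-IVM-MII oocytes held 1449, 1697 and 2047 CPM at 6 weeks and 1077, 1026 and 1068 CPM at 12 months. All metaphase II oocytes of an age lay above all its GV oocytes. IVM-MII oocytes differed from GV by 1.25 at 6 weeks and 1.07 at 12 months, and co-cultured oocytes by just under 1 (0.996) and by 0.89. Mean CPM were 1.83 to 2.32 times as high as in GV oocytes.

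Ccna2 (ENSMUSG00000027715, chromosome 3, 36564865 to 36572150), the A-type cyclin of somatic cells and oocytes, showed the larger step. GV oocytes held 71.3, 131 and 48.8 CPM at 6 weeks and 46.2, 88.8 and 101.1 CPM at 12 months. At 6 weeks the values were 634, 529 and 524 CPM in IVM-MII and 530, 900 and 771 CPM in co-cultured oocytes. At 12 months they were 193, 864 and 957 CPM in IVM-MII and 840, 613 and 491 CPM in co-cultured oocytes. No metaphase II oocyte reached down to the GV range, though the first 12-month IVM-MII oocyte lay far below the other two, and without it the 12-month difference was 3.59. Mean CPM of Ccna2 were 6.72-fold and 8.53-fold higher after plain maturation and 8.76-fold and 8.23-fold higher after co-culture (differences 2.85, 2.84, 3.20 and 3.07). These were places 47, 35, 49 and 50 from the top of the 12037 genes.

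Ccnb2 (ENSMUSG00000032218, chromosome 9, 70407692 to 70421547), a second B-type cyclin, was as abundant as Ccnb1 in some oocytes and differed little between stages. It ranged from 344 to 639 CPM in the 6 GV oocytes and from 433 to 1153 CPM in the 12 metaphase II oocytes. Its differences were 0.54 and 0.60 after plain maturation and 0.62 and 0.13 after co-culture, all within the fold, and only in the 12-month IVM-MII comparison did the oocytes not overlap. Without GV 12-month oocyte 3 the last of these was -0.16. Ccnb3 (ENSMUSG00000051592, chromosome X, 6979652 to 7041619), a B-type cyclin known for its part in the first meiotic anaphase, had few counts: 0 to 8.25 CPM in GV and 1.24 to 21.4 CPM in metaphase II oocytes. Its differences were 1.48 at 6 weeks and 0.23 at 12 months after plain maturation, and 1.92 and 0.86 after co-culture. It was non-overlapping only in 6-week MSC-IVM-MII oocytes, at 13.3, 11.0 and 11.4 CPM against 0, 8.25 and 3.18 CPM in GV. Without the Y01 oocyte the 6-week IVM-MII difference was 0.86, and without GV 12-month oocyte 3 the 12-month MSC-IVM-MII difference was 1.26.

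The inhibitory kinases were within the fold of their GV levels in CPM in all 4 maturation comparisons. Wee2 (ENSMUSG00000037159, chromosome 6, 40439088 to 40466813), the oocyte form of Wee1, ranged from 52.9 to 157 CPM in GV and from 76.3 to 168 CPM in metaphase II oocytes. Its differences were 0.12 and 0.66 after plain maturation and 0.09 and 0.76 after co-culture. In 12-month MSC-IVM-MII oocytes, 145, 147 and 168 CPM stood above the 52.9, 113 and 122 CPM of GV oocytes; in the other 3 maturation comparisons the oocytes overlapped. In deposited TPM the 12-month differences of Wee2 were past the fold, at 1.07 after plain maturation and 1.36 after co-culture. TPM divide by the weighted length. For Wee2 at 12 months it was 2419 to 2765 bases in GV, 1192 to 2805 in IVM-MII and 1756 to 2272 in co-cultured oocytes. Pkmyt1 (ENSMUSG00000023908, chromosome 17, 23726336 to 23736735), the membrane-bound inhibitory kinase, ranged from 7.33 to 15.5 CPM in GV and from 1.99 to 23.8 CPM in metaphase II oocytes. Its differences of -0.56, 0.08, 0.34 and -0.05 all came with overlapping oocytes.

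Among the activating phosphatases, Cdc25c was the one most often at 0 after maturation. Cdc25b (ENSMUSG00000027330, chromosome 2, 131186949 to 131198497), which is needed for meiotic resumption in mouse oocytes, was low throughout. GV oocytes held 6.70, 15.8 and 1.42 CPM at 6 weeks and 5.78, 10.3 and 15.1 CPM at 12 months. IVM-MII oocytes held 3.15, 0 and 0 CPM at 6 weeks and 7.24, 8.39 and 1.27 CPM at 12 months. MSC-IVM-MII oocytes held 2.74, 12.3 and 12.4 CPM at 6 weeks and 0, 3.05 and 7.50 CPM at 12 months. All 4 maturation comparisons overlapped, with differences of -2.08 and -0.94 after plain maturation and 0.37 and -1.72 after co-culture. A 0 in these libraries allows up to 3 counts.

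Cdc25c (ENSMUSG00000044201, chromosome 18, 34732993 to 34751533) was at 5.63, 8.49 and 1.06 CPM in 6-week and at 1.11, 6.52 and 7.10 CPM in 12-month GV oocytes. It was at 0 in 7 of 12 metaphase II oocytes and reached 4.65 CPM at most. At 12 months the sums were 104 counts [85–126] in GV, 3 [0.6–8.8] in IVM-MII and 5 [1.6–11.7] in co-cultured oocytes, and the groups did not overlap (differences -2.11 and -2.01). At 6 weeks they overlapped (differences -0.77 and -1.71). Cdc25a (ENSMUSG00000032477, chromosome 9, 109875579 to 109893895), which also acts on Cdk2, ranged from 7.55 to 36.9 CPM in GV and from 9.10 to 81.4 CPM in metaphase II oocytes. All its comparisons overlapped, with differences of 0.54 and -0.10 after plain maturation and 1.10 and 0.84 after co-culture. In deposited TPM the first was 1.47, past the fold.

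Past the fold, 2 members were lower (Cdk1 and Cdc25b) and 3 higher (Ccnb1, Ccnb3 and Ccna2) in 6-week IVM-MII oocytes than in GV, where 39.2% of the 12037 genes were lower and 16.7% higher. At 12 months the numbers were 2 lower (Cdk1 and Cdc25c) and 2 higher (Ccnb1 and Ccna2), against 39% and 16.1% of all genes. With co-culture 2 were lower (Cdk1 and Cdc25c) and 3 higher (Ccnb3, Ccna2 and Cdc25a) at 6 weeks, against 35.2% and 21.4% of all genes. At 12 months 3 were lower (Cdk1, Cdc25b and Cdc25c) and 1 higher (Ccna2), against 41.7% and 16.7%. The members' share lower was under that of all genes in each comparison. Their share higher was above that of all genes except in 12-month co-cultured oocytes. With 10 genes these shares are coarse, and whether they differ from those of all genes was not tested. Which members passed the fold depended in part on the scale. In deposited TPM Ccnb3 (0.99) left and Cdc25a joined the higher members in 6-week IVM-MII oocytes, and in 12-month IVM-MII oocytes Wee2 joined the higher and Cdc25b (-1.23) the lower ones. With co-culture Ccnb1 (1.24) joined at 6 weeks, and at 12 months Wee2 joined and Cdc25b (-0.83) left. Leaving out 1 oocyte brought Ccnb1 down to 0.93 in 6-week and 0.95 in 12-month IVM-MII oocytes. It also brought Ccnb3 to 0.61 in 6-week IVM-MII, Cdc25a to 0.78 in 6-week co-cultured and Cdc25b to -0.87 in 12-month co-cultured oocytes. The members' median differences were 0.33, 0.16, 0.49 and 0.44 in the order 6-week IVM-MII, 12-month IVM-MII, 6-week MSC-IVM-MII and 12-month MSC-IVM-MII, and those of all genes -0.52, -0.52, -0.29 and -0.60. Oocytes did not overlap for 1 lower and 2 higher members in the first comparison (29.2% and 9.59% of all genes) and for 2 and 3 in the second (26.2% and 11.2%). They did not overlap for 1 and 3 in the third (28.7% and 14.2%) and for 2 and 3 in the last (28.5% and 10.9%). Cdk1 was among the lower ones in each, and Ccnb1 and Ccna2 were among the higher ones in each.

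**Figure D2:**
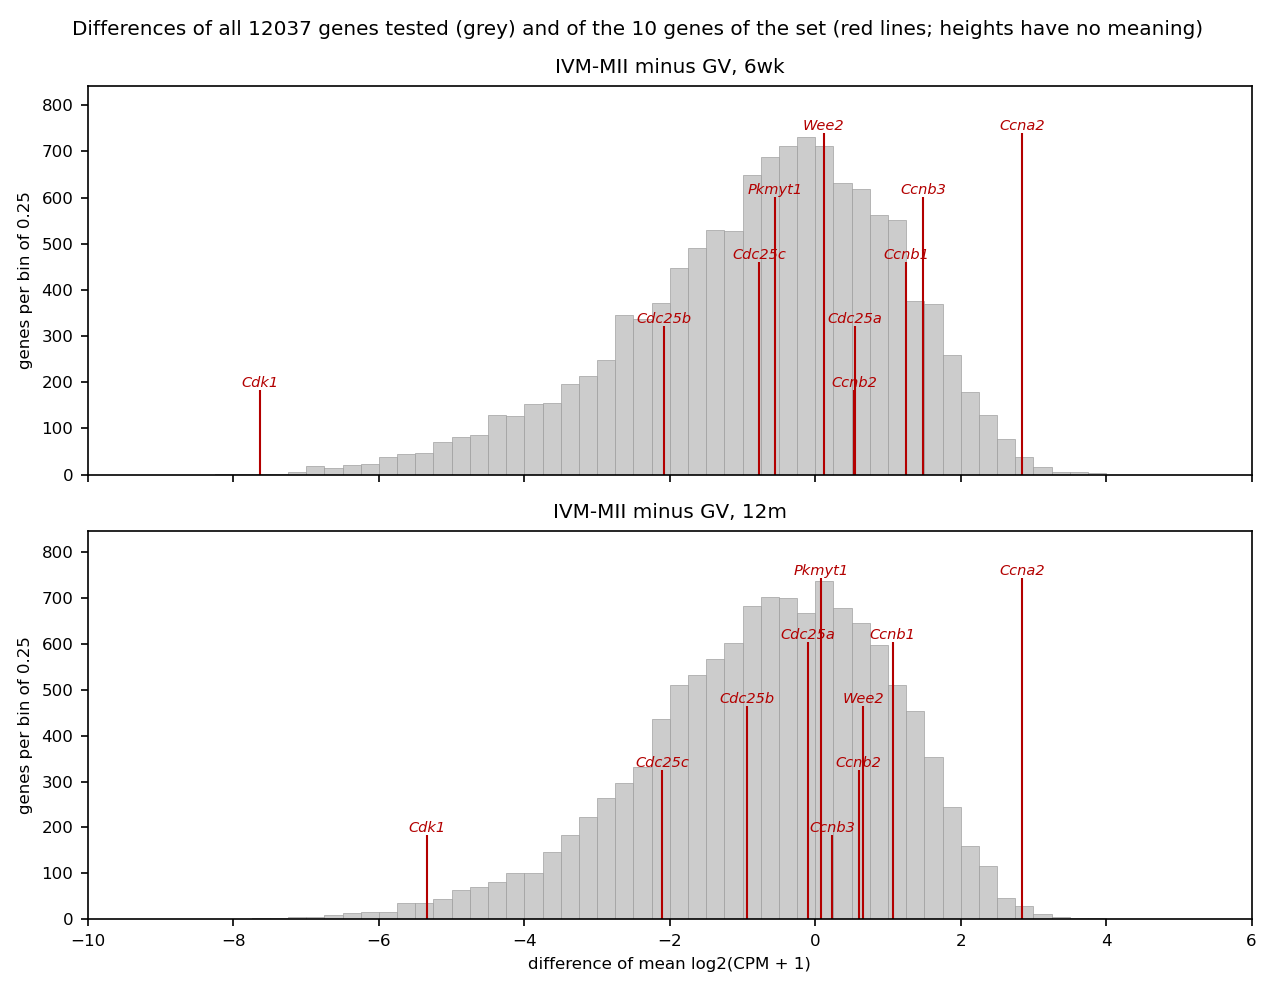
Number of genes (y axis) by the difference of mean log2(CPM + 1), IVM-MII minus GV (x axis, bins of 0.25), at 6 weeks above and 12 months below, with red lines at the 10 genes; line heights only separate the names. Cdk1 (-7.64 and -5.34) lies in the far left tail and Ccna2 (2.85 and 2.84) in the right tail, and the other 8 lie within the bulk.

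Between genes, levels were compared in TPM. In 6-week GV oocytes Ccnb1 averaged 508 ± 209, Cdk1 456 ± 85.8 and Ccnb2 370 ± 49.0 TPM, which overlap and take places 377, 439 and 544 among 47069 genes. Wee2 at 51.2 ± 26.1 and Ccna2 at 46.3 ± 33.7 TPM followed far below, and overlapped each other. Pkmyt1, Cdc25a, Cdc25b and Cdc25c lay between 3.21 and 6.99 TPM, and Ccnb3 at 0.977 ± 1.22 TPM. In 12-month GV oocytes the order at the top was Cdk1 (410 ± 175), Ccnb2 (348 ± 65.4) and Ccnb1 (293 ± 99.3 TPM), again overlapping. After maturation Ccnb1 led in all 4 groups, at 1363 ± 307 TPM in 6-week IVM-MII, 1127 ± 153 in 6-week MSC-IVM-MII, 701 ± 223 in 12-month IVM-MII and 520 ± 42.6 TPM in 12-month MSC-IVM-MII oocytes. Ccnb2, Ccna2 and Wee2 came next, in that order, in each. At 6 weeks the oocytes' ranges of neighbours in this order did not overlap, and at 12 months those of Ccnb1 and Ccnb2, of Ccnb2 and Ccna2 and, in IVM-MII oocytes, of Ccna2 and Wee2 did. Cdk1 went from place 439 to 7298 of all genes between 6-week GV and IVM-MII oocytes, and from 475 to 2539 at 12 months.

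Ratios within an oocyte do not depend on library scaling. The TPM of Ccnb1 was 0.544 to 1.69 times that of Cdk1 in 6-week and 0.327 to 1.72 times in 12-month GV oocytes. In the 8 metaphase II oocytes where both genes had at least 3 counts it was 12.1 to 384.5 times as high, with no overlap. Ccna2 to Ccnb1 was 0.0506 to 0.140 in 6-week and 0.0741 to 0.138 in 12-month GV oocytes. It was 0.154 to 0.313 in 6-week IVM-MII, 0.280 to 0.417 in 6-week MSC-IVM-MII, 0.136 to 0.678 in 12-month IVM-MII and 0.510 to 0.941 in 12-month co-cultured oocytes. In TPM the 12-month co-cultured oocytes stood above those of 6 weeks without overlap. TPM divide by the weighted length, which for Ccnb1 was 2097 to 2468 bases in the former and 1701 to 2152 in the latter. In counts the 2 groups overlapped. Co-cultured oocyte 2 at 6 weeks had 2698 counts of Ccna2 to 5089 of Ccnb1, and oocyte 3 at 12 months had 2487 to 5407.

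Ccnb1 to Ccnb2 had medians of 1.56 in GV, 2.50 in IVM-MII and 1.75 in co-cultured oocytes at 6 weeks, and of 0.829, 1.41 and 1.22 at 12 months. At both ages the co-cultured oocytes overlapped with the IVM-MII oocytes. At 12 months the weighted length of Ccnb1 was 2097 to 2468 bases in co-cultured and 1719 to 1791 in IVM-MII oocytes, and that of Ccnb2 was 1541. In summed counts these groups held 15240 of Ccnb1 to 9141 of Ccnb2 and 21560 to 14041, so the order of their 12-month medians depends on length. Wee2 exceeded Pkmyt1 in all 18 oocytes, by 5.18 to 41.6 times. Cdc25b to Cdc25a ran from 0.179 to 3.01 in GV oocytes and from 0.0437 to 0.561 in the metaphase II oocytes where it could be given, and these ranges overlap. Cdc25b to Wee2, the activating phosphatase against the inhibitory kinase, ran from 0.0149 to 0.269 in GV and from 0.00577 to 0.0935 in metaphase II oocytes.

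**Figure D3:**
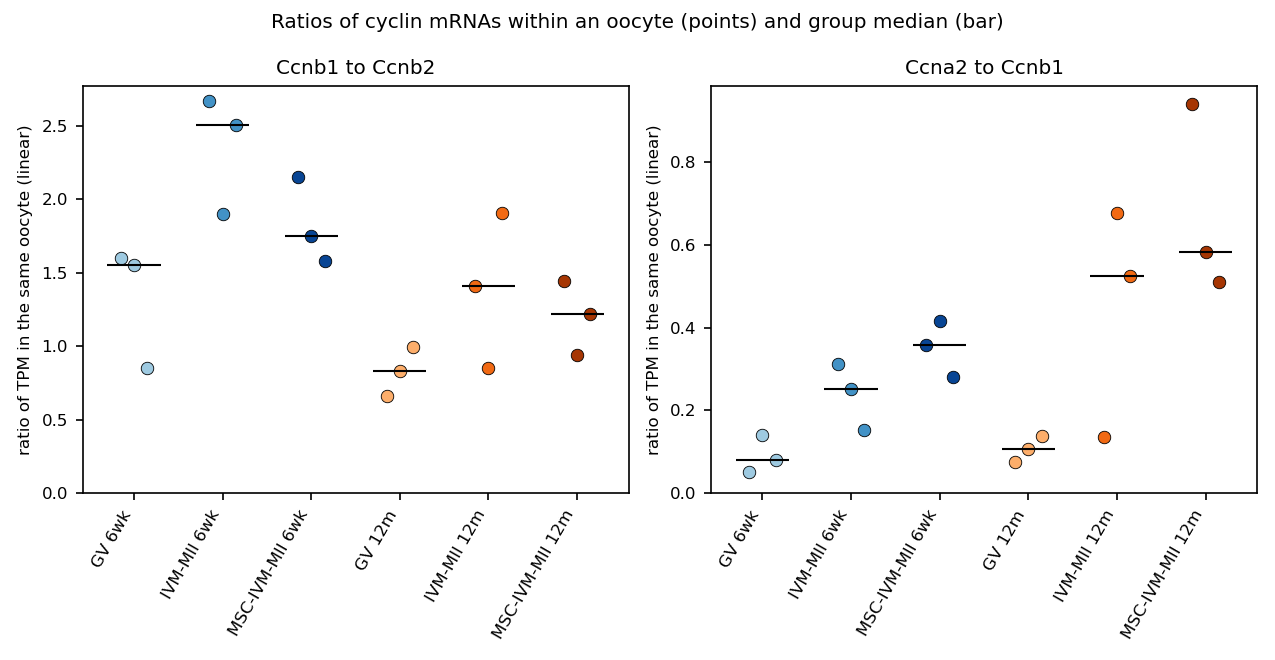
Ratio of deposited TPM within each oocyte (y axis, linear) for Ccnb1 to Ccnb2 on the left and Ccna2 to Ccnb1 on the right, in the 6 groups on the x axis, with points for oocytes and bars for group medians. The Ccna2 to Ccnb1 medians go from 0.0795 and 0.106 in GV to between 0.251 and 0.583 in metaphase II oocytes, with 1 low point of 0.136 in 12-month IVM-MII oocytes.

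Co-culture was compared with plain maturation at the same age. At 6 weeks 1 of 10 members was higher past the fold and 0 lower, against 16.2% and 5.22% of all genes, and at 12 months 0 were past the fold in either direction, against 10.3% higher and 15.2% lower. In deposited TPM the 12-month split over all genes was 1116 higher and 1085 lower, in place of 1236 and 1826. No member separated the oocytes of the 2 groups at either age (background shares 3.86% higher and 1.51% lower at 6 weeks, 2.63% and 3.99% at 12 months). The member past the fold was Cdc25b, with 86 counts [68.8–106.2] in 6-week MSC-IVM-MII and 14 [7.7–23.5] in IVM-MII oocytes, all 14 from the Y01 oocyte. Its difference was 2.44, it was 3.74 without the Y01 oocytes and 1.17 with a pseudocount of 5. At 12 months Cdc25b differed by -0.78, with 60 [45.8–77.2] against 108 [88.6–130.4] counts. The cyclins differed by -0.25 (Ccnb1), 0.09 (Ccnb2), 0.44 (Ccnb3) and 0.35 (Ccna2) at 6 weeks and by -0.18, -0.47, 0.62 and 0.22 at 12 months. Without the Y01 oocytes 3 members were higher past the fold at 6 weeks, with Pkmyt1 (1.37) and Cdc25a (1.22) beside Cdc25b, Ccna2 differed by 0.66, and Cdk1 by -0.18 in place of 0.81. Overlap in 3 oocytes against 3 does not show that the groups are alike.

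Age was compared within each kind of oocyte. Because the title prefixes O01, O04 and O05 belong to 12-month and Y01 and Y03 to 6-week oocytes, age cannot be told apart from whatever the prefixes mark. In GV oocytes 0 members were past the fold, against 4.27% of all genes lower and 9.45% higher. In deposited TPM 620 genes were lower and 485 higher, in place of 514 and 1138. Leaving out 1 oocyte gave up to 998 lower (without GV 6-week oocyte 3) and up to 2169 higher (without GV 6-week oocyte 2). Only Pkmyt1 separated the ages there, at 7.33, 9.66 and 11.0 CPM at 12 months and 15.5, 11.7 and 11.7 CPM at 6 weeks (difference -0.44; 3.51% of all genes were separated lower and 3.67% higher). Ccnb1 was lower at 12 months in all 3 kinds of oocyte, with overlap in GV (-0.59) and none after plain maturation (-0.77) or co-culture (-0.70). Ratios of mean CPM were 1.56, 1.73 and 1.64. Ccnb1 kept its sign under all alternatives run, which gave -0.90 to -0.39 in GV, -0.98 to -0.61 after plain maturation and -1.11 to -0.57 after co-culture.

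In IVM-MII oocytes 1 member was lower and 2 higher past the fold at 12 months (9.08% and 18% of all genes; 1217 and 1346 genes in TPM, in place of 1093 and 2167), and in MSC-IVM-MII oocytes 1 was lower and 1 higher (15.2% and 7.73%). Separated members numbered 1 lower and 0 higher after plain maturation (2.38% and 6.24% of all genes) and 1 lower and 1 higher after co-culture (4.86% and 2.94%). Cdk1, already low after maturation, was higher at 12 months by 2.29 after plain maturation and by 1.71 after co-culture, with overlap in both, and differed by -0.01 in GV oocytes (0.64 without GV 12-month oocyte 3). Without the Y01 oocytes the values for Cdk1 after maturation were 1.97 and 2.38. Leaving out 1 oocyte gave 1.12 to 3.65 after plain maturation and 0.84, within the fold, to 2.38 after co-culture. Cdc25b differed by 1.80 after plain maturation and by -1.43 after co-culture, and Cdc25c by -1.34 in IVM-MII oocytes on 3 against 31 counts, all with overlap. Wee2 was separated higher at 12 months in MSC-IVM-MII oocytes, at 145, 147 and 168 CPM against 104, 105.02 and 126 CPM (difference 0.46).

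**Figure D4:**
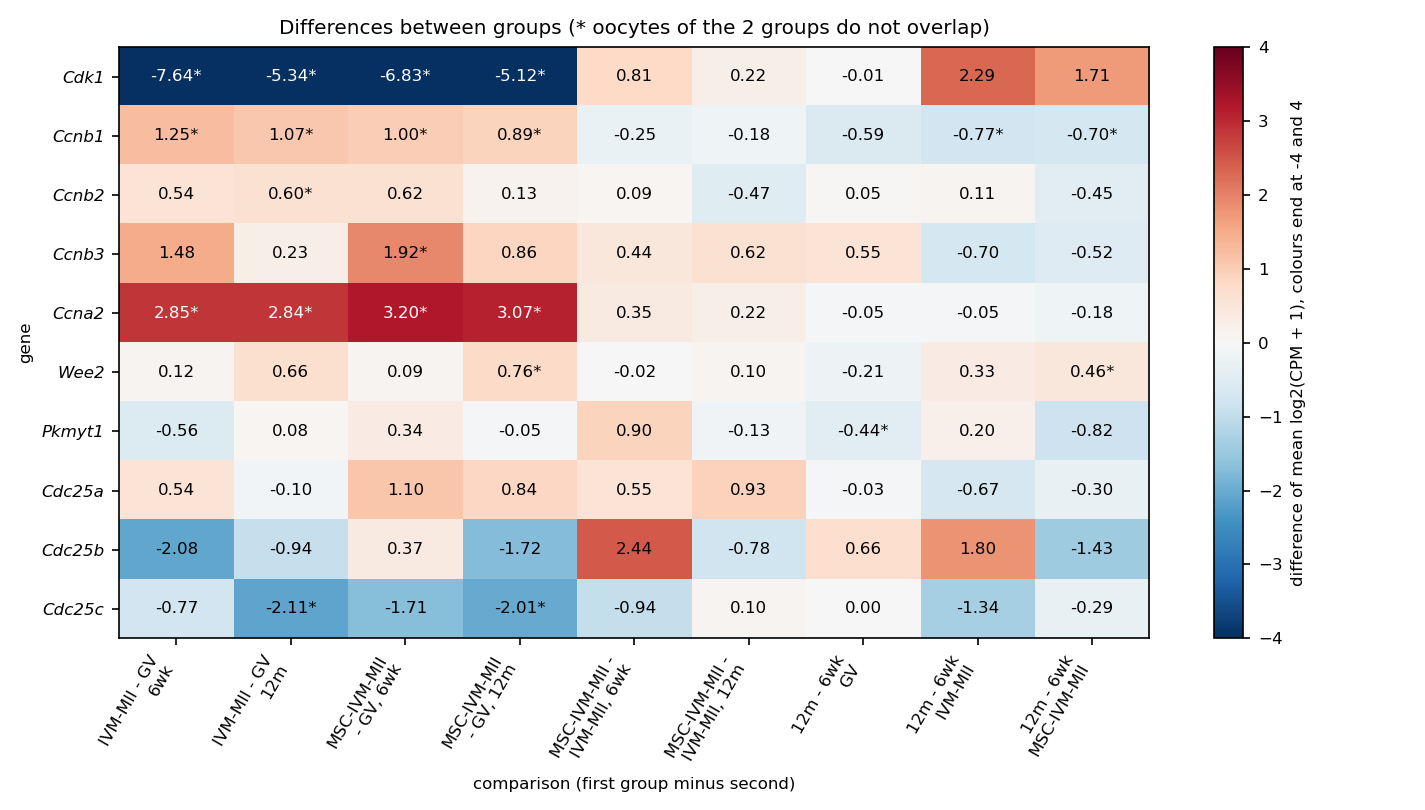
Differences of mean log2(CPM + 1) of the 10 genes (rows) in the 9 comparisons (columns, first group minus second), printed in each cell and coloured from blue (lower) to red (higher), with a star where the oocytes of the 2 groups do not overlap. The 4 maturation columns carry stars for Cdk1, Ccnb1 and Ccna2 throughout, the 2 co-culture columns carry none, and the age columns carry stars for Ccnb1 in both metaphase II comparisons.

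The deposited gene length is weighted over the transcripts of a gene by their estimated abundance, and shows which forms the files favour. It is given where an oocyte had at least 20 counts. For Ccnb1, whose messages are known to be made with 3′ UTRs of several lengths, it was 1719 to 1791 bases in 12-month IVM-MII and 2097 to 2468 bases in 12-month MSC-IVM-MII oocytes, without overlap. At 6 weeks the IVM-MII oocytes had 2237, 1615 and 1661 bases and the MSC-IVM-MII oocytes 2152, 1713 and 1701 bases, with the Y01 oocyte highest in each. The GENCODE transcripts with the sequences shown above are 2140 (Ccnb1-202) and 2489 bases (Ccnb1-201) long, and which annotation the files used is not stated. In deposited TPM, which divide by this length, co-culture at 12 months gave Ccnb1 a difference of -0.39 in place of -0.18. Cdk1 had 995 to 1252 bases in GV oocytes, far from the 4375 bases of Cdk1-201 and nearer to the 1253 bases of Cdk1-202. Ccna2 had 2084 to 2197 bases in metaphase II oocytes and 2044 to 2275 in 5 of the 6 GV oocytes. In GV 12-month oocyte 3, the one with cumulus and granulosa markers, it was 2965 bases, the length of Ccna2-201 without the CPE. Cdc25a had 3637 to 3695 bases in 6-week GV and 1567 to 2708 in 6-week IVM-MII oocytes, without overlap. Oocytes 2 and 3 of the latter had only 37 and 54 counts. At 12 months the lengths were 3642 to 3689 bases in GV and 1688 to 3670 in IVM-MII oocytes, with overlap.

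The genes with and without a CPE were set side by side as a description, since they also differ in other ways, length and base composition among them, that were not matched. Over all genes with a terminal hexamer, the median difference of IVM-MII from GV oocytes was 0.23 with a CPE and -0.66 without one at 6 weeks, and 0.04 and -0.67 at 12 months. For MSC-IVM-MII oocytes it was 0.48 and -0.41 at 6 weeks and 0.05 and -0.78 at 12 months. Of the members, the 4 with a CPE in at least 1 annotated transcript had differences above 0 in all 4 maturation comparisons, from 0.09 (Wee2) to 3.20 (Ccna2). Only Ccnb1 and Ccna2 kept this sign under all alternatives. Wee2 fell to -0.33 after plain maturation and -0.36 after co-culture at 6 weeks, and Ccnb3 to -0.52 and -0.21 at 12 months. Ccnb1 and Ccna2 also have annotated ends without a CPE, Ccnb1-201 (2489 bases) and Ccna2-201 (2965 bases). Deposited lengths of Ccnb1 in 12-month IVM-MII oocytes, 1719 to 1791 bases, were below both Ccnb1-201 and Ccnb1-202 (2140 bases). In 12-month MSC-IVM-MII oocytes they were 2097 to 2468 bases. Ccna2 lengths in metaphase II oocytes, 2084 to 2197 bases, were nearer to Ccna2-205 (2001 bases), which has a CPE. Which ends were used was not tested. The 6 without a CPE ran from -7.64 (Cdk1) to 1.10 (Cdc25a). Cdk1 was classed by Cdk1-201, whose length is far from the deposited lengths. The nearer Cdk1-202 has no terminal hexamer and could not be classed. Ccnb2, without a CPE in the window, lay within the fold in each.

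**Figure D5:**
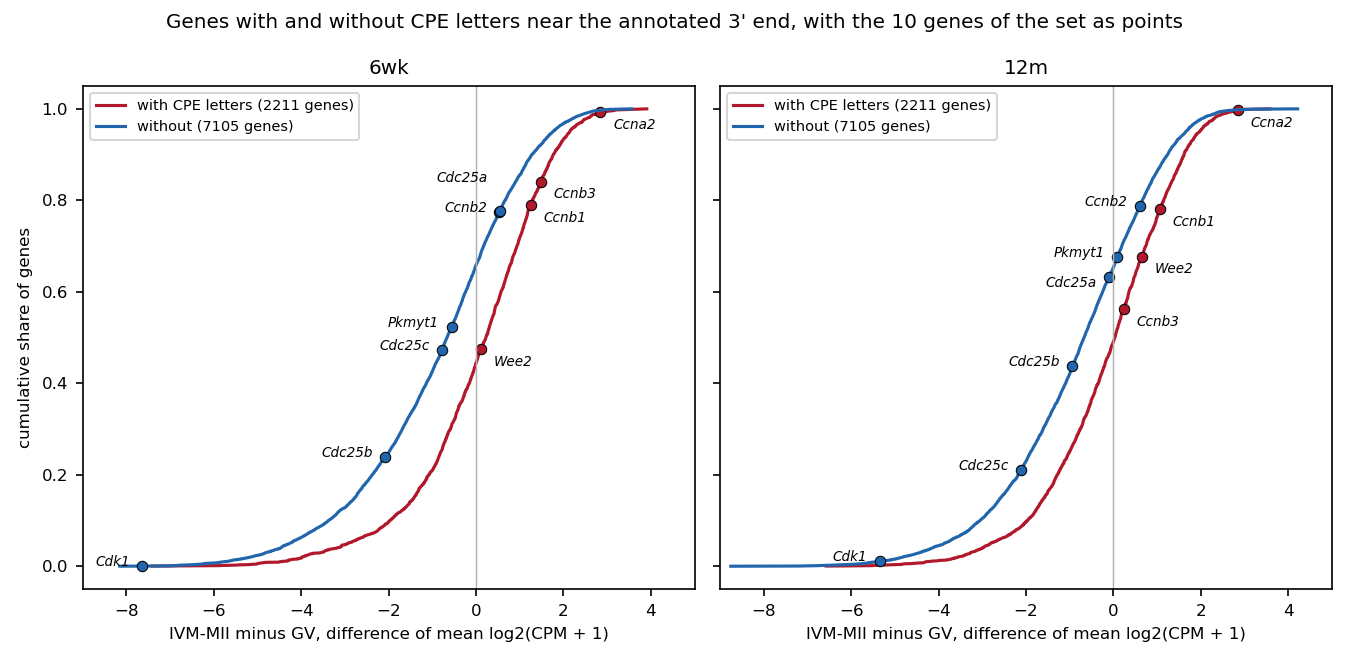
Cumulative share of genes (y axis) by the difference of mean log2(CPM + 1), IVM-MII minus GV (x axis), at 6 weeks and 12 months, for 2211 genes with CPE letters (red) and the other 7105 genes with a terminal hexamer (blue), with the 10 members as points on the curve of their class. The red curve lies to the right of the blue one over most of its length, with medians of 0.23 against -0.66 at 6 weeks. Cdk1, classed by Cdk1-201, sits at the lower end of the blue curve.

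The other genes of the pathway were a list of 38, of which 35 passed the filter. In 6-week IVM-MII against GV oocytes 10 of these were lower and 6 higher past the fold, and at 12 months 9 and 5. With co-culture the numbers were 9 and 8 at 6 weeks and 11 and 7 at 12 months. Their medians were -0.23, 0.04, 0.15 and 0.05. Between co-cultured and plain IVM-MII oocytes 1 was lower and 6 higher at 6 weeks, and 3 and 5 at 12 months. With age 0 were lower and 3 higher in GV oocytes, 6 and 6 after plain maturation and 7 and 4 after co-culture. The shares of all genes are those given above. Cks1b, the small subunit that binds Cdk1 and helps it reach its substrates, went from a mean of 268 to 1778 CPM in 6-week and from 368 to 1854 CPM in 12-month IVM-MII oocytes (differences 2.62 and 2.34), and by 2.40 and 2.11 with co-culture. Ccnh, the cyclin of the kinase that activates Cdk1, was lower in all 4 comparisons (-3.82, -4.01, -2.50 and -4.49), at 65.6 and 77.2 CPM in GV and 4.80 to 11.9 CPM after maturation. Ppp2r2b, a regulatory subunit of the phosphatase PP2A, which opposes Cdk1, was lower by at least 3.57 in each (-4.05, -3.57, -4.30 and -3.84).

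Chek1, the checkpoint kinase that restrains Cdc25, was higher in all 4 maturation comparisons, by 2.24 and 1.57 after plain maturation and by 2.21 and 1.69 after co-culture. Ccne2, an E-type cyclin, was also higher in all 4, by 1.73 and 1.63 after plain maturation and by 1.49 and 1.47 after co-culture. Cks2, a sister of Cks1b, was higher by 1.58 in 12-month IVM-MII oocytes and within the fold in the other 3 comparisons. Ywhaz, a 14-3-3 protein of the family that binds phosphorylated Cdc25, was higher by 1.43 after plain maturation and 2.37 after co-culture at 12 months and by 1.18 after co-culture at 6 weeks, and overlapped with GV in 6-week IVM-MII oocytes (1.03). Mastl, the Greatwall kinase that holds PP2A in check during M phase, was higher by 2.09 in 6-week MSC-IVM-MII oocytes, and overlapped with GV in the other 3 comparisons (0.20, 0.84 and 0.65). Arpp19, its substrate and a PP2A inhibitor, was lower in all 4 (-2.50 and -2.92 after plain maturation, -2.60 and -3.17 after co-culture). Cdk2, the partner of cyclins E and A, was lower in 6-week IVM-MII oocytes (-3.27), on 3 counts against 122, and overlapped with GV in the other 3 comparisons (-0.51, -1.04 and -0.09). Where a named gene of this list is called higher or lower without mention of overlap, the oocytes of the 2 groups did not overlap. The counts of this list past the fold also take in genes whose oocytes overlapped. Past the fold or not, oocytes did not overlap for 8 lower and 5 higher of the 35 genes in 6-week IVM-MII oocytes. The shares of all genes there were 29.2% and 9.59%. In 12-month IVM-MII oocytes the counts were 5 and 6 (26.2% and 11.2% of all genes). With co-culture these were 6 and 7 at 6 weeks (28.7% and 14.2%) and 6 and 6 at 12 months (28.5% and 10.9%). Whether this list differs from all genes was not tested.

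Genes whose pattern over the 18 oocytes was most like that of Cdk1 or Ccnb1 were found among 6284 genes with a mean of at least 20 CPM in some group, by the root mean square distance of log2(CPM + 1) after centring each gene. For Cdk1 they were Naa38 (1.00), Dpep3 (1.06), Cpsf4l (1.07), Fgf8 (1.07) and Nudt9 (1.08). Naa38, for example, was at 70.1 to 238 CPM in GV and 0 to 8.68 CPM in metaphase II oocytes. For Ccnb1 they were Dnajb4 (0.359), Pdlim1 (0.375), Eif4a1 (0.383), Fbxo9 (0.386) and Zfand6 (0.386). Dnajb4 was at 80.9 to 166 CPM in GV and 151 to 416 CPM in metaphase II oocytes. Reads of the pseudogenes Ccnb1-ps and Ccnb2-ps were at most 1 and 4 per oocyte, so few of the reads counted here were assigned to these copies.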

How the data were processed

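Each of the 18 libraries came from 1 oocyte, lysed softly, with the nucleus spun down and the supernatant used, per the labels' protocols. The authors deposited expected counts, TPM and a weighted length per gene, per the file headers. Per the submitters' processing notes, the builds were mm10 and GRCm38.p5 and the tools TopHat2 2.1.1, Cufflinks, FastQC 0.11.8 and Trim Galore 0.4.5. What estimated the counts, and on which annotation, was not given in the sources used here. Symbols and coordinates came from GENCODE M21 (46488 of 47069 identifiers matched).

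Expected counts were rounded. Scaling used TMM factors from edgeR 4.0.16, run in R 4.3.3, after filterByExpr by group (minimum count 10), which left 12037 genes. Differences are of group means of log2(CPM + 1), with a pseudocount of 1, which understates those of low genes. Totals of 1914072 to 9193559 counts set the precision. The 9 comparisons had no test, since the labels name no animals. The computation was checked on simulated counts with known changes. Compared in pairs, no 2 libraries agreed within sampling noise. The remaining steps ran in Python 3.11.15 (pandas 2.3.3, NumPy 2.4.6, Matplotlib 3.10.9, SciPy 1.17.1).

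Named were all 10 members; of the other pathway genes, in each maturation comparison, the 3 largest differences each way among those past the fold whose oocytes did not overlap; and the 5 genes nearest to Cdk1 and to Ccnb1. Of the genes so chosen, 1 is not reported here. The members and lists were chosen with earlier results of these data known. The ratio of Ccna2 to Ccnb1, the CPE search and its windows were chosen after the data were seen. Alternatives were median-of-ratios scaling, deposited TPM, mitochondrially encoded genes left out, pseudocounts of 0.5 and 5, no filter, values within title prefixes, leaving out each oocyte, and leaving out the Y01 metaphase II oocytes.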

Additional observations from a re-analysis of the deposited data

How the results depend on the processing

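No paired analysis was possible because the oocyte numbers are only names given in accession order and the results come from no test that could take a block. Differences within the title prefixes that 2 groups share, given as descriptions, were -7.91 and -4.27 for Cdk1 in IVM-MII against GV at 6 weeks and 12 months and -6.61 and -4.77 with co-culture. Of 1190 alternative values of single members, 1180 moved by no more than the spread between oocytes (the pooled SD of the 2 groups) and 10 moved further. Leaving out 1 oocyte of 3 cannot move a difference past this spread, so those values were bound to be among the 1180. A reversal was counted only for differences of at least 1, and there were 0. Smaller ones did change sign. Pkmyt1 in 12-month MSC-IVM-MII against GV oocytes did so in 7 of 13 alternatives, and Ccnb2 with age in IVM-MII oocytes in 6 of 13. A pseudocount of 5 left 1 member lower past the fold in each of the 4 maturation comparisons, 0 lower and 1 higher for age in IVM-MII and 0 in either direction for age in MSC-IVM-MII oocytes. With median-of-ratios scaling 1 member was higher in 12-month IVM-MII oocytes and 1 with co-culture at 12 months. In 12-month MSC-IVM-MII against GV oocytes 2 were higher with mitochondrially encoded genes left out, with TPM and with no filter. For co-culture at 6 weeks, 1 was lower with mitochondrially encoded genes left out, with a pseudocount of 0.5 and within title prefixes, while 2 were higher in the last 2 of these and 3 without the Y01 oocytes. A pseudocount of 0.5 gave 1 lower for co-culture at 12 months. In TPM, age in IVM-MII oocytes had 2 lower and 1 higher, and without the Y01 oocytes age in MSC-IVM-MII oocytes had 2 lower. Leaving out each oocyte gave 2 to 4 lower and 2 to 4 higher for IVM-MII against GV at 6 weeks, 2 to 3 and 1 to 2 at 12 months, 2 to 2 and 2 to 5 for MSC-IVM-MII at 6 weeks and 2 to 3 and 1 to 3 at 12 months. For co-culture it gave 0 to 1 lower and 1 to 4 higher at 6 weeks and 0 to 1 and 0 to 2 at 12 months, and for age 0 to 0 and 0 to 2 in GV, 1 to 3 and 2 to 2 in IVM-MII and 0 to 4 and 0 to 1 in MSC-IVM-MII oocytes. The cause of these moves was not tested. Other scalings moved the median difference of all genes by -0.16 to 0.29. Cdk1 ran from -8.41 to -3.98 over all alternatives of the 4 maturation comparisons, Ccnb1 from 0.68 to 1.5 and Ccna2 from 2.44 to 3.59. Depth limits Cdc25b, Cdc25c and Ccnb3, which had 0 counts in some oocytes. Over all genes, a pseudocount of 5 cut the genes lower past the fold from 4721 to 3026 and from 4689 to 2897 in IVM-MII against GV at 6 weeks and 12 months, and from 4236 to 2799 and from 5017 to 3198 with co-culture, and those higher in 6-week IVM-MII from 2010 to 1339. It gave 116 lower and 466 higher for co-culture at 6 weeks in place of 628 and 1954, 539 and 374 at 12 months in place of 1826 and 1236, and for age 216 and 217 in GV (514 and 1138), 334 and 822 in IVM-MII (1093 and 2167) and 525 and 262 in MSC-IVM-MII oocytes (1829 and 930). Without the Y01 oocytes 1309 genes were lower for co-culture at 6 weeks, and 1647 higher for age in MSC-IVM-MII oocytes. Leaving out 1 oocyte moved the background too. For age in GV, 2169 genes were higher without GV 6-week oocyte 2 and 2017 without GV 12-month oocyte 1, and 998 were lower without GV 6-week oocyte 3, 844 without GV 12-month oocyte 2 and 861 without oocyte 3. For co-culture at 6 weeks, 1211 were lower and 3244 higher without IVM-MII oocyte 1, and 1222 lower without MSC-IVM-MII oocyte 1. At 12 months 1893 were higher without MSC-IVM-MII oocyte 1. For age, 1644 were lower in IVM-MII without 6-week oocyte 2, and 1416 and 1647 higher in MSC-IVM-MII without 12-month oocyte 2 and 6-week oocyte 1.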
